A study of Homo sapiens with 9 samples.

Results

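The genes examined here encode the aminoacyl-tRNA synthetases and the scaffold proteins that hold some of them together. They were measured in ZR-75-1, a human cell line grown from a breast cancer that carries the estrogen receptor. Of 38 listed genes, those whose symbol is paired with a probeset in the platform's annotation table were taken, and a gene with several probesets was read from the brightest of them, by its mean of all 9 arrays. This gave 18 of the 14884 named genes on the array: 17 of 19 cytosolic enzymes and 1 of 3 scaffold proteins (AIMP1). None of the 16 mitochondrial enzymes (AARS2, CARS2, EARS2, FARS2, HARS2, IARS2, LARS2, MARS2, NARS2, PARS2, RARS2, SARS2, TARS2, VARS2, WARS2 and YARS2) had a named probeset, nor did FARSA, FARSB, AIMP2 and EEF1E1, so these were not analysed here and cytosolic enzymes could not be set against mitochondrial ones.

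The 9 arrays formed 3 groups of 3. The first received a mimic of mature miR-150-5p at 50 nM in a lipid transfection reagent, the second a non-specific negative control RNA at 50 nM in the same reagent, and the mock cells the reagent with no RNA. All cells carried the lipid reagent, grew in RPMI-1640 with serum, had their medium replaced after 24 h and were harvested 48 h after transfection. Transfections were done in triplicate, but the labels do not say whether the triplicates came from separate cultures or days. The p-values set group differences only against the scatter of these samples, which may be technical.

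Each synthetase joins 1 kind of amino acid to its matching tRNAs, the step that supplies the ribosome with charged tRNA. In human cells several cytosolic synthetases sit in a large multi-synthetase complex around the scaffold proteins AIMP1, AIMP2 and EEF1E1, while others work free in the cytosol. Mitochondria use mostly a separate set of nuclear-encoded enzymes, but the genes GARS1 and KARS1 each supply the enzyme of both compartments. When amino acids run short, uncharged tRNA activates the kinase GCN2, translation of the transcription factor ATF4 goes up, and ATF4 induces amino acid synthesis genes and many of the cytosolic synthetase genes through the C/EBP-ATF response element in their promoters.

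That element is shown first, since the members that differed most between the groups are among the genes described as ATF4 targets. It was thus chosen with results of these data known, and many synthetase genes are already described as carrying it. Its share among the members is therefore a description only, and ATF4 activity was not tested. RefSeq promoter windows on GRCh38.p14, from 250 bases before to 50 bases after the gene start, were given for 15 of the 18 members. LARS1, VARS1 and YARS1 had none. They were searched on both strands for TGATGCAA, which reads TTGCATCA on the opposite strand, and for the looser form TGATGNAA, which includes it. TGATGCAA was found for AARS1, CARS1, IARS1, MARS1, NARS1 and TARS1, which is 6 of 15 members (40.0%). A gene counted if any of its windows held the letters, and on that count 95 of the 10749 array genes with a window did (0.884%), as did 304 of all 35116 single windows (0.866%). Among 16 measured genes of the ATF4 amino acid response with a window, 1 held it (6.25%). The looser form was found for these 6 members and GARS1, 7 of 15, for 3.22% of the array genes, in 3.62% of all windows and for 3 of the 16 response genes. EPRS1, HARS1, KARS1, QARS1, RARS1, SARS1, WARS1 and AIMP1 held neither, which says only that these letters are not in these windows. A match is a description of the letters and not a measured binding site. The matches with 10 bases on each side, on the gene's own strand and with the match in capitals, read as follows.
AARS1, chr16:70289676-70289703, minus strand: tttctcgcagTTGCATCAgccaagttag
IARS1, chr9:92293693-92293720, minus strand: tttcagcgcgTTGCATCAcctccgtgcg
CARS1, chr11:3057408-3057435, minus strand: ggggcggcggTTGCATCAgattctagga
MARS1, chr12:57488054-57488081, plus strand: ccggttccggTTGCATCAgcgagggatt
TARS1, chr5:33440957-33440984, plus strand: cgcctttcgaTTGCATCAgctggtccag
NARS1, chr18:57621805-57621832, minus strand: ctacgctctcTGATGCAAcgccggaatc
GARS1, chr7:30594835-30594862, plus strand: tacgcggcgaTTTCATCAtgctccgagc

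Against the negative control, members with a match in either form had changes from -0.62 (AARS1) to -0.03 (GARS1), with NARS1 and TARS1 at -0.08. EPRS1 (-0.31) and SARS1 (-0.14) hold no match, and YARS1 (-0.46) had no window. Whether the matches go with the changes was not tested. The whole windows of AARS1 (largest fall), IARS1 and QARS1 (largest positive change, no match) show where the match stands. In AARS1 it begins at base 64 of the 300-base window, counted from the 5′ end, and in IARS1 at base 238.
AARS1, chr16:70289457-70289756, minus strand: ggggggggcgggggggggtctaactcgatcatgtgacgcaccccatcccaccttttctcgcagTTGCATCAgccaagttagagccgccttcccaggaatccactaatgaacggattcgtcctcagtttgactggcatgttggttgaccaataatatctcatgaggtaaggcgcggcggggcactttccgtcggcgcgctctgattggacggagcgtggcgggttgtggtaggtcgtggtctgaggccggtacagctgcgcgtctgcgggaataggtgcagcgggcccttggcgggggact
IARS1, chr9:92293648-92293947, minus strand: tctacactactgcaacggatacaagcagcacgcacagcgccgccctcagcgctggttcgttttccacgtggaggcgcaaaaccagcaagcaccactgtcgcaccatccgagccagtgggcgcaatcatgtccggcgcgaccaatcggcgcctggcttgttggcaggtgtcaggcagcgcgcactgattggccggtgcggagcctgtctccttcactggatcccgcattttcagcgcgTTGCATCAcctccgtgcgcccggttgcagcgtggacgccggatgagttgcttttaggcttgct
QARS1, chr3:49104708-49105007, minus strand: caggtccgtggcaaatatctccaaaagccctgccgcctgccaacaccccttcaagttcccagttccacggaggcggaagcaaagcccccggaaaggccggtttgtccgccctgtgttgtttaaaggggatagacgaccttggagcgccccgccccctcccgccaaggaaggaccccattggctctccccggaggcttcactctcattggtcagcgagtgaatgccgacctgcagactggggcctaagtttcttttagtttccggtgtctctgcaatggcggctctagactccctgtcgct

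Intensities are the authors' RMA values on the log2 scale, where a difference of 1 is a doubling. The array median over all probesets lay between 4.22 and 4.27, and each array's mean correlation with its own group between 0.9925 and 0.9954. All 18 members had a mean above the median of all genes (5.44). The 9 measured luminal markers, such as KRT18 and EPCAM, had means from 6.51 to 12.07, while 2 basal, 3 endothelial and 3 fibroblast markers stayed at or below 4.52 and 3 leukocyte markers reached 6.42, through CD68. Of the luminal markers ESR1, the estrogen receptor, rose by 0.46 ± 0.07 against the negative control (adjusted p = 0.0295, limma) and by 0.45 ± 0.07 against mock (adjusted p = 0.0406), while the other 8 did not pass. These calls held in 6 and 3 of 17 alternative settings, with adjusted p up to 0.128 and 0.19. Probesets differ in how well they bind, so changes are read between arrays for 1 gene. The levels set beside the median and between markers above are only a rough description. Bulk RNA cannot tell less transcript per cell from fewer cells that express it.

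Against the negative control RNA, 1 of the 18 members passed the test: AARS1, the alanyl-tRNA synthetase, fell by 0.62 ± 0.07 on the log2 scale (SE, n = 3 arrays per group), a 1.54-fold lower level, with an adjusted p = 0.0107 in limma's test. The threshold was an adjusted p of 0.05, by Benjamini-Hochberg over 14884 genes, of which 0.551% passed, 0.349% as lower and 0.202% as higher. AARS1 had intensities of 10.18, 10.31 and 10.20 on the mimic arrays, 10.86, 10.92 and 10.78 on the negative control arrays, and 10.84, 10.86 and 10.81 on the mock arrays. The mimic arrays lay below every control array with a wide gap, and the controls overlapped each other. The 95% interval of the change ran from -0.78 to -0.47. Its adjusted p stayed under 0.05 in 12 of 17 alternative settings and ranged from 0.00118 to 0.0632. It missed the threshold without mimic replicate 1 (0.0585), negative control replicate 1 (0.0582) or negative control replicate 2 (0.0565), with changes of -0.60, -0.62 and -0.59.

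**Figure D1:**
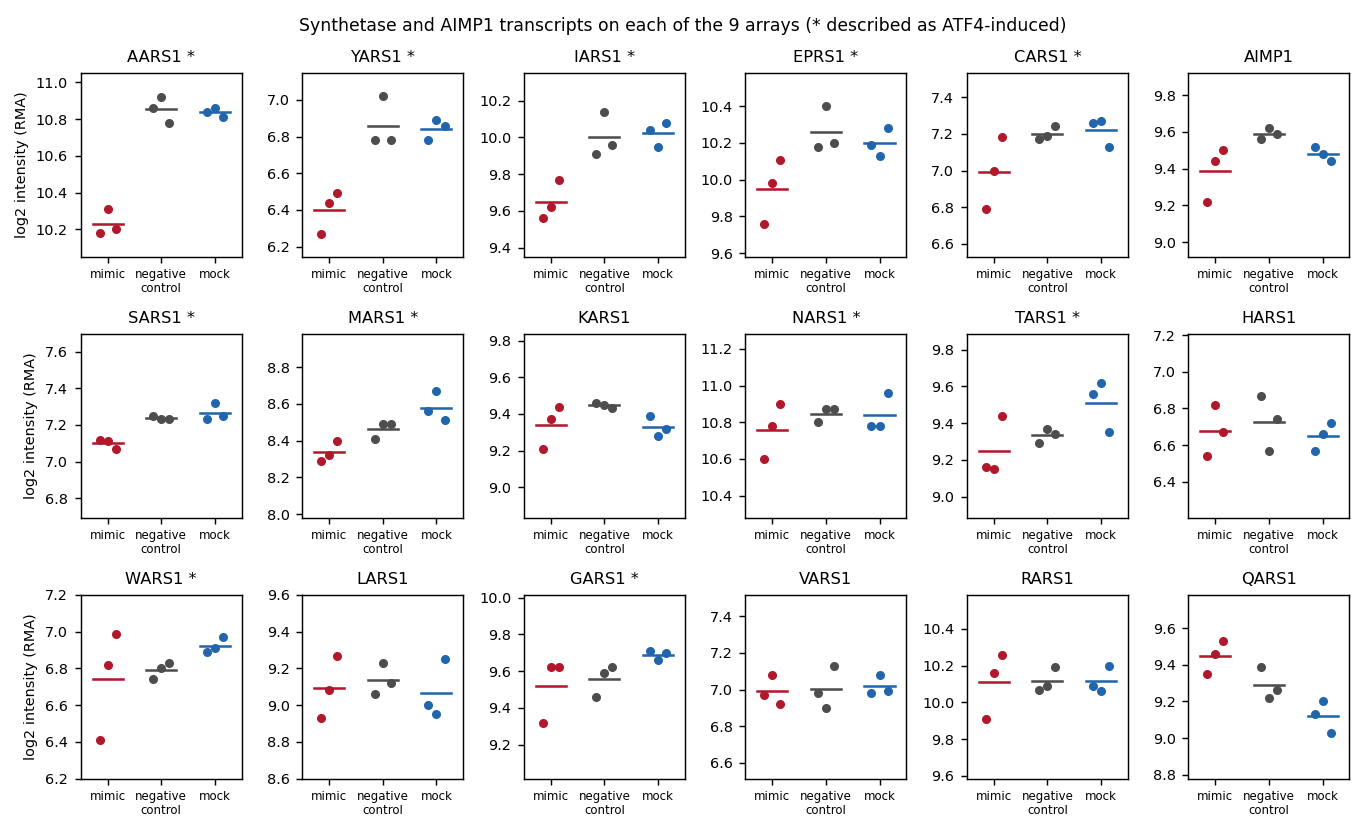
Log2 RMA intensity (y axis, 1 log2 unit in every panel) of the 18 measured members on the 3 mimic, 3 negative control and 3 mock arrays, 1 point per array with replicates 1 to 3 from left to right and a bar at the group mean. Panels run from the most negative to the most positive change against the negative control. AARS1, YARS1, IARS1, EPRS1, SARS1 and MARS1 show all mimic arrays below all control arrays, while VARS1 and RARS1 overlap.

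YARS1, the tyrosyl-tRNA synthetase, came closest to the threshold among the rest. Its intensities were 6.27, 6.44 and 6.49 on the mimic arrays, 6.78, 7.02 and 6.78 on the negative control arrays, and 6.78, 6.89 and 6.86 on the mock arrays. All mimic arrays were below all control arrays. The log2 change against the negative control was -0.46 ± 0.09, with an adjusted p = 0.0594 in limma's test. It passed in 4 of 17 alternatives, with adjusted p from 0.0196 to 0.193. YARS1 had only 7 distinct values on its 9 arrays, as the deposited table repeats some values exactly. This held for 4 of 18 members (MARS1, RARS1, SARS1 and YARS1) and for 57.1% of all genes.

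The subunits of the multi-synthetase complex differed among themselves. IARS1, the isoleucyl-tRNA synthetase, had 9.56, 9.62 and 9.77 on the mimic arrays, 9.91, 10.14 and 9.96 on the negative control arrays, and 10.04, 9.95 and 10.08 on the mock arrays. The mimic arrays did not overlap with either control, and the change against the negative control was -0.36 ± 0.09 (adjusted p = 0.121, limma). EPRS1, which joins the glutamyl- and prolyl-tRNA synthetases in 1 protein, had 9.76, 9.98 and 10.11 on the mimic arrays, 10.18, 10.40 and 10.20 on the negative control arrays, and 10.19, 10.13 and 10.28 on the mock arrays. Mimic replicate 3 nearly reached mock replicate 2, and the change against the negative control was -0.31 ± 0.10 (adjusted p = 0.253, limma). AIMP1, the scaffold protein that is also the precursor of a cytokine, had 9.22, 9.44 and 9.50 on the mimic arrays, 9.56, 9.62 and 9.59 on the negative control arrays, and 9.52, 9.48 and 9.44 on the mock arrays. It was lower than the negative control on every mimic array but overlapped with mock, with a change of -0.21 ± 0.08 (adjusted p = 0.351, limma), or -0.12 without mimic replicate 1.

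QARS1, the glutaminyl-tRNA synthetase of the same complex, ran the other way. It had 9.35, 9.46 and 9.53 on the mimic arrays, 9.39, 9.22 and 9.26 on the negative control arrays, and 9.13, 9.20 and 9.03 on the mock arrays. The mimic arrays were above all mock arrays, and the negative control arrays lay between, overlapping with the mimic. The change was 0.16 ± 0.08 against the negative control (adjusted p = 0.462, limma). It was the 1 positive change among the 18 members in this comparison. MARS1, the methionyl-tRNA synthetase that also charges the initiator tRNA, differed by -0.13 ± 0.07, and its 3 mimic arrays (8.29, 8.32 and 8.40) lay just below the negative control arrays (8.41, 8.49 and 8.49). KARS1, LARS1 and RARS1, the lysyl-, leucyl- and arginyl-tRNA synthetases, differed by -0.11, -0.04 and -0.0038. For RARS1 the 95% interval ran from -0.22 to 0.21. Of the 8 measured proteins of the complex, 0 passed against the negative control, beside 0.551% of all genes, and 3 had an unadjusted p under 0.05 as lower, beside 6.39%, with a median change of -0.12. Against mock 0 passed, beside 0.302% of all genes, and 3 were lower and 1 higher at an unadjusted p under 0.05, beside 4.84% and 5.87%, with a median of -0.05.

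The free cytosolic enzymes other than AARS1 and YARS1 had small changes. CARS1, the cysteinyl-tRNA synthetase, ran from 6.79 to 7.18 on the mimic arrays, with a mean of 6.99 ± 0.20 (SD, n = 3), and had 7.17, 7.19 and 7.24 on the negative control arrays, and 7.26, 7.27 and 7.13 on the mock arrays. Its mimic arrays were spread widely, with replicate 3 among the controls, and the change was -0.21 ± 0.10 (adjusted p = 0.433, limma), or -0.10 without mimic replicate 1. SARS1, the seryl-tRNA synthetase, had values with little spread. It had 7.12, 7.11 and 7.07 on the mimic arrays and 7.25, 7.23 and 7.23 on the negative control arrays. The mock arrays had 7.23, 7.32 and 7.25. The change of SARS1 against the negative control was -0.14 ± 0.06 (adjusted p = 0.388, limma). NARS1, TARS1, HARS1 and VARS1, the asparaginyl-, threonyl-, histidyl- and valyl-tRNA synthetases, differed by -0.08, -0.08, -0.05 and -0.01 and overlapped with the negative control. WARS1, the tryptophanyl-tRNA synthetase known as an interferon-gamma-induced gene, had the widest mimic values, 6.41, 6.82 and 6.99, against 6.74, 6.80 and 6.83 on the negative control arrays. Its change was -0.05 with a 95% interval from -0.34 to 0.24. GARS1, the glycyl-tRNA synthetase of both compartments, differed by -0.03, with an interval from -0.24 to 0.18.

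In all, 17 of 18 members had a negative change against the negative control, with a median of -0.10 beside 0.01 for all genes, of which 46.5% were negative and 53.4% positive. An unadjusted p under 0.05 was found for 6 members, all lower (AARS1, EPRS1, IARS1, SARS1, YARS1 and AIMP1), and for 6.39% of all genes as lower and 6.18% as higher. Mimic and negative control arrays did not overlap, with the mimic lower, for 7 members (these 6 and MARS1) and for 8.01% of all genes, beside 8.42% with the mimic higher. Members share each array, so their common direction is not a count of independent events. Mimic replicate 1 was the lowest of the 3 mimic arrays for 15 of 18 members (83.3%). The share was 52.5% of the genes above the median intensity, where all members lie, and 44.8% of all genes. Without it 12 of 18 members had a negative change, with a median of -0.04, and 4 were lower and 1 higher at an unadjusted p under 0.05. Without negative control replicate 2 or 3 the count of lower members was 3 or 4. The shares of all genes were computed only for the fit of all 9 arrays, so these counts have none beside them. The part of mimic replicate 1 in the members' common direction was not tested.

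Against mock, the cells with reagent and no RNA, AARS1 again was the 1 member that passed. It fell by 0.61 ± 0.07 (1.53-fold, n = 3 per group), with an adjusted p = 0.0212 in limma's test. Of all genes, 0.302% passed, 0.134% as lower and 0.168% as higher. Both comparisons use the same 3 mimic arrays, so the second is not independent of the first. The call held in 6 of 17 alternatives, with adjusted p from 0.00354 to 0.117 and changes from -0.65 to -0.58. Of the 9 fits that each left out 1 array, it passed only without negative control replicate 2 (0.044), while the others gave 0.0502 to 0.103.

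YARS1 differed by -0.45 ± 0.09 against mock (adjusted p = 0.109, limma) and IARS1 by -0.37 ± 0.09 (adjusted p = 0.157). QARS1 differed by 0.33 ± 0.08 (adjusted p = 0.178, limma), with a 95% interval from 0.15 to 0.51, and was the 1 member whose mimic arrays lay above all mock arrays. MARS1 differed by -0.24 ± 0.07, EPRS1 by -0.25 ± 0.10, CARS1 by -0.23 ± 0.10, and TARS1 by -0.26 ± 0.10, and none of them passed. TARS1 had 9.16, 9.15 and 9.44 on the mimic arrays, against 9.56, 9.62 and 9.35 on the mock arrays, so mimic replicate 3 lay above mock replicate 3. SARS1 differed by -0.17, GARS1 by -0.17, WARS1 by -0.18, AIMP1 by -0.09 and NARS1 by -0.08. Without mimic replicate 1 the difference from mock was -0.01 for WARS1, -0.07 for GARS1, -0.01 for AIMP1, 0.00081 for NARS1, -0.13 for CARS1 and -0.15 for EPRS1. HARS1, KARS1 and LARS1 had small positive changes (0.03, 0.01 and 0.02), and RARS1 and VARS1 small negative ones (-0.01 and -0.03).

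Against mock 14 of 18 members had a negative change, with a median of -0.17 beside 0.01 for all genes, of which 46.1% were negative and 53.8% positive. An unadjusted p under 0.05 was found for 8 members as lower and 1 as higher, and for 4.84% and 5.87% of all genes. The groups did not overlap for 7 members with the mimic lower and 1 with the mimic higher, and for 5.44% and 7.21% of all genes. Without mimic replicate 1, 12 of 18 changes were negative and the median was -0.04, with 5 lower and 1 higher at an unadjusted p under 0.05. Leaving out mimic replicate 2, mock replicate 1 or mock replicate 2 also left 5 lower. For these fits too the shares of all genes were not computed.

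**Figure D2:**
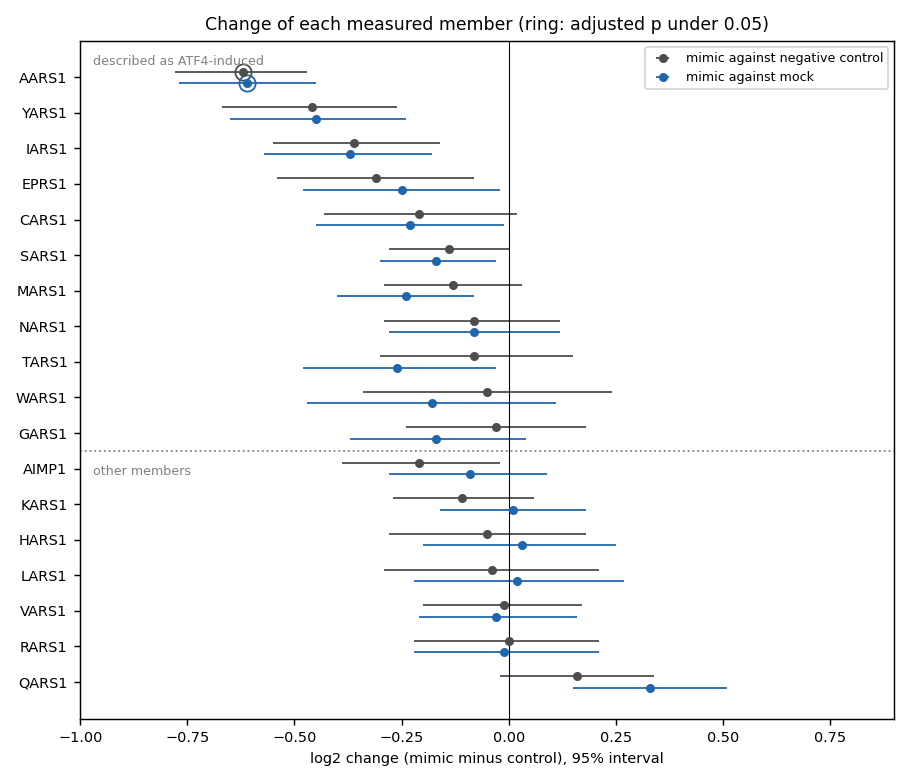
Log2 change of each measured member (x axis, mimic minus control) with its 95% interval, against the negative control (grey) and against mock (blue), with the 11 enzymes described as ATF4-induced above the dotted line. Rings mark an adjusted p under 0.05, which AARS1 reached in both comparisons, with changes of -0.62 and -0.61. QARS1 at the bottom has the positive changes 0.16 and 0.33.

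The comparison of the negative control RNA with mock, which addresses the presence of a transfected RNA by itself, gave no call. Limma's lowest adjusted p was 0.976, 0% of all genes passed, and 4.18% of genes (2.04% lower and 2.14% higher) and 0 of 18 members had an unadjusted p under 0.05. The members had 9 negative and 9 positive changes, beside 47.1% and 52.8% of all genes. AARS1 differed by 0.01 with a 95% interval from -0.14 to 0.17, YARS1 by 0.02 and IARS1 by -0.02. The 3 members with the lowest p were QARS1 (0.17 ± 0.08), TARS1 (-0.18 ± 0.10) and MARS1 (-0.12 ± 0.07). QARS1, KARS1 (0.12) and AIMP1 (0.11) lay higher on every negative control array than on any mock array, and GARS1 (-0.13), MARS1 and WARS1 (-0.13) lower. These 3 and 3 of 18 stand beside 4.77% of all genes as higher and 3.33% as lower, 8.1% in all. For QARS1 and MARS1 the negative control thus stood between the mimic and mock, whereas for AARS1 the arrays of both controls overlapped.

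The members were next split by whether they are widely described as ATF4-induced, a list taken from general knowledge. Like the other lists, it was chosen with earlier results of these data known, so it is not independent of them. The 11 so described (AARS1, CARS1, EPRS1, GARS1, IARS1, MARS1, NARS1, SARS1, TARS1, WARS1 and YARS1) all had negative changes, in both comparisons of the mimic. Their median was -0.14 against the negative control and -0.24 against mock, with 1 of 11 passing in each. Among all genes 0.551% and 0.302% passed, and 46.5% and 46.1% had a negative change. Of the 6 other measured cytosolic enzymes (HARS1, KARS1, LARS1, QARS1, RARS1 and VARS1), 5 had negative changes against the negative control and 2 against mock, with medians of -0.03 and 0.02 and 0 passing. The difference between these lists was not tested. In the same order as the arrays are numbered, the mean of the 11 stood at -0.41, -0.25 and -0.16 on the mimic arrays, at -0.10, 0.01 and -0.05 on the negative control arrays, and at -0.01, 0.01 and 0.00 on the mock arrays, each as a log2 difference from the mock mean. The mimic arrays lay below all 6 control arrays. With AARS1 left out they stood at -0.38, -0.22 and -0.11, and mimic replicate 3 was level with negative control replicate 1 (-0.11). The other 6 enzymes stood at -0.07, 0.11 and 0.13 on the mimic arrays and at 0.09, 0.03 and 0.09 on the negative control arrays, which overlap. Without mimic replicate 1, 9 of 11 changes against the negative control and 10 of 11 against mock were negative, with medians of -0.10 and -0.17.

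**Figure D3:**
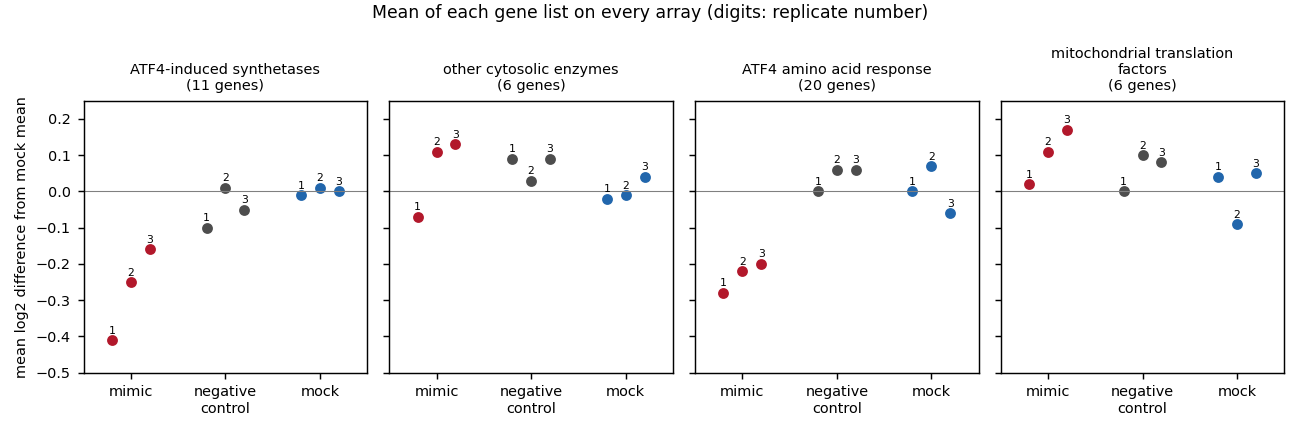
Mean log2 difference from the mock mean (y axis) for 4 gene lists on each array, with mimic, negative control and mock arrays from left to right and digits for the replicate. The 11 synthetases described as ATF4-induced lie between -0.41 and -0.16 on the mimic arrays, and the other 6 cytosolic enzymes between -0.07 and 0.13.

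ATF4 itself, whose activity is set mainly by translation of its mRNA, had 8.06, 8.06 and 8.16 on the mimic arrays, 8.05, 8.02 and 8.06 on the negative control arrays, and 8.06, 8.21 and 8.06 on the mock arrays. Its change against the negative control was 0.05 ± 0.07, with an adjusted p = 0.822 in limma's test and a 95% interval from -0.11 to 0.20. Among 20 measured of 33 listed genes of the ATF4 amino acid response, 3 fell against the negative control and 0 rose, all of them enzymes of serine synthesis: PSAT1 (-0.84 ± 0.10), PHGDH (-0.72 ± 0.09) and PSPH (-0.42 ± 0.07), with adjusted p of 0.0118, 0.0153 and 0.0401 in limma's test. Of all genes 0.349% fell. PSAT1 passed in 13 of 17 alternative settings (adjusted p up to 0.0746), PHGDH in 9 (up to 0.091) and PSPH in 6 (up to 0.172). PHGDH, the first enzyme of that pathway, had 7.24, 7.14 and 7.47 on the mimic arrays, 8.02, 8.05 and 7.94 on the negative control arrays, and 7.94, 7.98 and 8.01 on the mock arrays. The mimic arrays stood apart from both controls. Against mock PHGDH (-0.70 ± 0.09, adjusted p = 0.0224) and PSAT1 (-0.66 ± 0.10, adjusted p = 0.0359) fell, and PSPH at -0.39 did not pass (adjusted p = 0.0721). PHGDH and PSAT1 each passed there in 6 of 17 alternatives, with adjusted p up to 0.146 and 0.179, beside 0.134% of all genes that fell. ASNS, the asparagine synthetase and a classical ATF4 target, had 5.71, 5.87 and 6.29 on the mimic arrays against 6.44, 7.06 and 6.46 on the negative control arrays. These groups did not overlap, but the change of -0.70 ± 0.18 did not pass (adjusted p = 0.154, limma). The list's median was -0.14 against the negative control and -0.17 against mock. In each comparison 18 of 20 were negative, beside 46.5% and 46.1% of all genes. Against the negative control 7 were lower and 0 higher at an unadjusted p under 0.05, beside 6.39% and 6.18%. Against mock 7 were lower and 1 higher, beside 4.84% and 5.87%. CTH had the list's largest fall against the negative control, -1.16 ± 0.26, but did not pass (adjusted p = 0.0963, limma). Its mean (4.29) lay under the median of all genes, and mimic replicate 1 (2.91) lay below the other mimic arrays (3.90 and 4.19). TRIB3, a pseudokinase of the response, differed by -0.11 and -0.09, and STC2, a secreted glycoprotein, by 0.14 and 0.27, and neither passed. Without mimic replicate 3 TRIB3 differed by -0.01 and 0.01, and without mimic replicate 1 STC2 by 0.05 and 0.18.

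Of the sensors upstream of ATF4, 3 of 13 listed genes were measured and 0 passed. EIF2AK4, which encodes GCN2, differed by -0.11 ± 0.07 against the negative control, or -0.07 without mimic replicate 1, and its coactivator GCN1 by 0.04. IMPACT, an inhibitor of GCN2 activation, had 7.92, 8.45 and 8.46 on the mimic arrays, 8.86, 8.94 and 8.91 on the negative control arrays, and 8.65, 8.62 and 8.95 on the mock arrays. It was lower on every mimic array than on any control array, with changes of -0.62 ± 0.15 (adjusted p = 0.104, limma) and -0.46 ± 0.15 (adjusted p = 0.293). Mimic replicate 1 was well below the other mimic arrays, and without it the changes were -0.45 and -0.28.

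With no mitochondrial synthetase measured, the nearest genes at hand for that compartment were 6 measured of 10 listed mitochondrial translation factors. None passed, with medians of -0.01 against the negative control and 0.12 against mock. MTRF1L, a mitochondrial release factor, had the lowest p, with 7.47, 7.36 and 7.44 on the mimic arrays, 7.07, 7.11 and 6.97 on the negative control arrays, and 7.21, 7.21 and 7.06 on the mock arrays. The mimic arrays were the highest, and the change was 0.37 ± 0.07 against the negative control (adjusted p = 0.0596, limma) and 0.26 ± 0.07 against mock (adjusted p = 0.229). With the mean of its 5 probesets the change against the negative control was 0.21. Of 6 measured cytosolic elongation factors, 0 passed. Their medians were 0.06 and 0.12, with 4 and 6 changes positive, beside 53.4% and 53.8% of all genes. At an unadjusted p under 0.05, 0 and 2 were higher, beside 6.18% and 5.87%, and 0 were lower in either comparison. EEF1A1, the tRNA carrier, differed by 0.15 ± 0.07 against the negative control, with no overlap. The mimic lay above the control without overlap for 2 of these factors against the negative control and 3 against mock, beside 8.42% and 7.21% of all genes. Of the synthetase genes of both compartments, GARS1 differed by -0.03 and -0.17 and KARS1 by -0.11 and 0.01 in the same comparisons, and neither passed.

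VARS1 and WARS1 each had a second, dimmer probeset. That of WARS1 (mean 4.38, under the median of all genes) differed by 0.06 ± 0.24 against the negative control and -0.34 ± 0.24 against mock, and that of VARS1 by 0.04 ± 0.06 and 0.01 ± 0.06. The sign against the negative control differed between the probesets of both genes, at changes near 0.

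**Figure D4:**
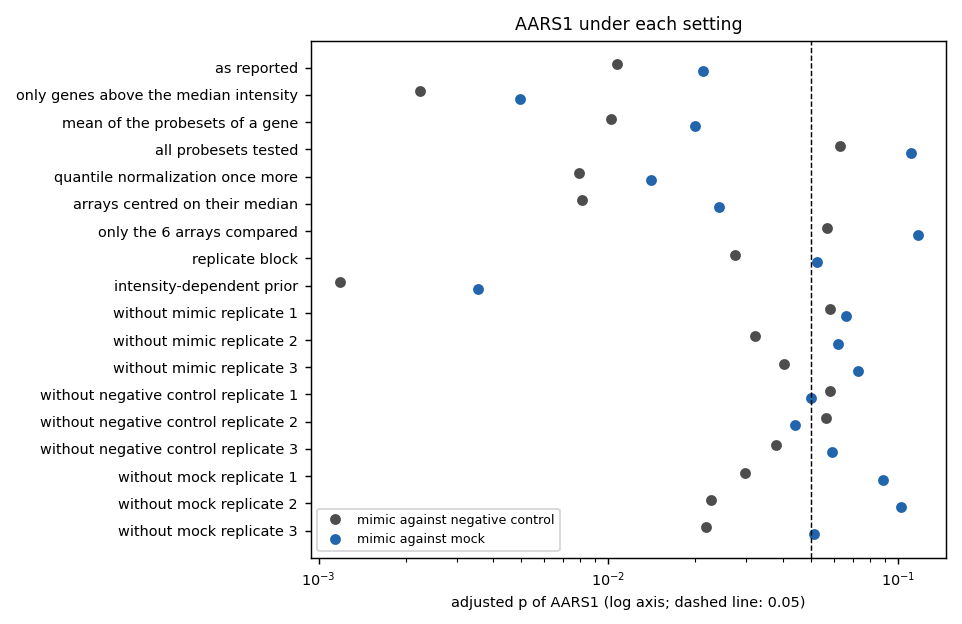
Adjusted p of AARS1 (x axis, log scale, dashed line at 0.05) as reported and under 17 alternative settings, against the negative control (grey) and against mock (blue). The grey points stay between 0.00118 and 0.0632 and the blue ones between 0.00354 and 0.117.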

How the data were processed

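Total RNA of 9 samples, labelled with biotin, was hybridised to Affymetrix Human Gene 2.0 ST arrays, 1 sample per array. The deposited table covers 53617 probesets in log2 values made by the authors with RMA, per the submitters' processing notes. RMA corrects background, equalises arrays and summarises probes, while no label or header used here gives its version, probe annotation or build. The table holds no detection call, and the number of arrays limits the precision.

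A table of the platform's annotation names 16098 probesets, 14884 genes in all. Values were fitted in R 4.3.3 with limma 3.58.1 (lmFit, eBayes), 1 mean per group over all 9 arrays, with 6 residual degrees of freedom. P-values are two-sided and adjusted by Benjamini-Hochberg over 14884 genes. Errors are moderated SE, or SD where stated. An exact permutation test of 3 against 3 arrays cannot go below 0.1. The fit was tested on simulated data. No filter on dim genes was used.

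The members and lists were chosen with earlier results of these data known. The planned difference between cytosolic and mitochondrial enzymes was not computed, as no mitochondrial enzyme was named. Named genes are all measured members and, per related list, up to 4 that passed or the gene with the lowest p, plus ATF4 and PSAT1. ESR1, ASNS, CTH, TRIB3, STC2, EIF2AK4 and GCN1 were added after their values were seen. Alternatives changed the filter, probeset rule, features tested, normalization, arrays fitted, replicate block and variance prior. The counts of members by direction under each alternative were added after seeing the data.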

Additional observations from a re-analysis of the deposited data

How the results depend on the processing

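With 3 arrays per group, calls moved with the setting more than changes did. Against the negative control 82 genes passed, against 263 with only genes above the median intensity, 181 with an intensity-dependent prior, 16 with the replicate number as a block, 8 from the 6 arrays compared and 6 of all probesets tested; leaving out 1 array gave 7 to 121. Of the members 1 passed, against 3 (AARS1, YARS1 and IARS1) with only genes above the median, 2 with the prior, with quantile normalization once more and with arrays centred on their median, 0 from the 6 arrays or with all probesets, and 0 to 1 without 1 array. Against mock 45 genes passed, against 102, 78, 3, 1 and 3 in the same order and 1 to 10 without 1 array; of the members 1 passed, against 2 above the median, 0 with the block, from the 6 arrays or with all probesets, and 0 to 1 without 1 array. The causes of these shifts were not tested. Negative control against mock gave 0 throughout. The replicate block left AARS1 called against the negative control (adjusted p = 0.0274) and not against mock (0.0526, limma). Samples of the same number deviated together only weakly, with correlations of deviations from -0.06 to 0.13. Deviations from a group mean cancel over its 3 arrays, so the mean with the other numbers largely mirrors the same-number value with its sign turned. It was 0.13 beside -0.08 for negative control and mock replicates 3, and -0.06 beside 0.02 for mimic and mock replicates 2. That contrast is therefore no separate check of pairing. As the correlations were weak and the labels name no pairs, the numbers were not taken as pairs, and the block stayed an alternative.

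Signs turned only for changes near 0. With the mean of the probesets VARS1 and WARS1 were 0.01 and 0.01 against the negative control. With quantile normalization HARS1, KARS1, LARS1 and GCN1 were -0.0014, -0.04, -0.03 and -0.03 against mock, and NARS1 and YARS1 -0.0025 and -0.01 for negative control against mock. With centred arrays IARS1, RARS1 and VARS1 were 0.0021, 0.02 and 0.01 there. Without 1 array the changes against the negative control ran from -0.08 to 0.07 for GARS1, -0.13 to 0.02 for HARS1, -0.13 to 0.04 for LARS1, -0.08 to 0.09 for RARS1, -0.06 to 0.05 for VARS1 and -0.18 to 0.12 for WARS1. Against mock they ran from -0.05 to 0.10 for HARS1, -0.04 to 0.07 for KARS1, -0.07 to 0.12 for LARS1, -0.15 to 0.00081 for NARS1, -0.08 to 0.09 for RARS1, -0.07 to 0.01 for VARS1, -0.14 to 0.01 for TRIB3 and -0.05 to 0.03 for ATF4. For negative control against mock they ran from -0.02 to 0.05 for AARS1, -0.07 to 0.0041 for CARS1, -0.0046 to 0.10 for EPRS1, -0.09 to 0.03 for IARS1, -0.03 to 0.06 for NARS1, -0.04 to 0.04 for RARS1, -0.08 to 0.04 for VARS1 and -0.06 to 0.06 for YARS1. Without turning sign, KARS1, NARS1 and TARS1 against the negative control moved to -0.04, -0.0047 and -0.03 without mimic replicate 1. The alternatives planned for cytosolic minus mitochondrial enzymes were not run.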

Other observations

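Genes that prepare or export tRNA showed no common direction. Of 21 listed, 14 were measured and 0 passed in limma's test. At an unadjusted p under 0.05 against the negative control, 2 were higher and 1 lower, beside 6.18% and 6.39% of all genes. Their medians were -0.02 against the negative control and 0.03 against mock. RPP25, a subunit of ribonuclease P, which trims the 5′ end of tRNA precursors, had the lowest p. Its intensities were 5.95, 6.01 and 5.89 on the mimic arrays, 6.34, 6.32 and 6.23 on the negative control arrays, and 6.14, 6.12 and 6.14 on the mock arrays. The 3 groups did not overlap, with changes of -0.35 ± 0.07 against the negative control (adjusted p = 0.0543) and -0.18 ± 0.07 against mock (adjusted p = 0.369), while the negative control stood 0.16 above mock. RPP30, another subunit, stood 0.27 ± 0.09 higher in negative control than in mock (adjusted p = 0.976, limma).

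Of 11 listed relatives of the synthetases 7 were measured and 0 passed in limma's test. At an unadjusted p under 0.05, 2 were lower against the negative control and 0 against mock, beside 6.39% and 4.84% of all genes. Their medians were -0.02 and 0.02 against the negative control and mock. TARS3, a second cytosolic threonyl-tRNA synthetase, had 5.27, 5.36 and 5.10 on the mimic arrays, 5.50, 5.56 and 5.62 on the negative control arrays, and 5.55, 5.21 and 5.66 on the mock arrays. It lay below the negative control on all mimic arrays and overlapped with mock, with a change of -0.32 ± 0.12 (adjusted p = 0.307, limma). MTFMT, which formylates the mitochondrial initiator tRNA, stood 0.14 higher in negative control than in mock. EEF1D, an exchange factor for the elongation factor that carries tRNA, differed by 0.28 ± 0.07 against mock (adjusted p = 0.204, limma), and MTIF3, a mitochondrial initiation factor, by 0.12 between negative control and mock.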
